A study of Mus musculus with 12 samples.

Results

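The interleukin 1 family of the epithelium was followed through the forestomach of mice that drank alcohol. The 9 genes were taken by name from the array annotation: Il1a, Il1b, Il1rn, Il18, Il33 and the members Il1f5, Il1f6, Il1f8 and Il1f9. They were represented by 13 of the 41174 probes other than controls, and all 13 passed the filter on signal that left 30450 probes and 20719 genes. Each of 3 groups held 4 samples of snap-frozen whole forestomach, all from wild-type adult mice of the strain C57BL/6J. The first group received 15% alcohol for 40 weeks (OE26F; the labels do not name what it was dissolved in), the second received 20% alcohol in supersaccharin for 4 weeks (OE27C), and the control group received supersaccharin with 0% alcohol (OE27A). No number of weeks is labelled for the controls, and no control is labelled as that of the 40-week group. In comparisons of that group, alcohol thus cannot be told apart from duration or from any difference that goes with its code. The alcohol groups also differ from each other in dose and duration at once. Arrays had 2 colours: forestomach RNA was labelled with Cy5 and a commercial pool, the Universal Mouse Reference RNA of Agilent, with Cy3 on all of them, so dyes were not swapped. Values are therefore log2 ratios of forestomach to reference, and a change is a difference of 2 such ratios unless a single channel is named. The labels do not say whether replicates were separate animals, so p-values measure only the spread between these samples, which may be technical.

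Cytokines of the interleukin 1 family are signals that squamous epithelium keeps in store and releases when it is damaged. Il1a encodes a cytokine that is already active as the uncleaved precursor, whereas the products of Il1b and Il18 are cut by caspase-1 before they act, and the product of Il33 is held in the nucleus. Il1rn encodes the antagonist that competes for the receptor Il1r1. The genes Il1f6, Il1f8 and Il1f9, now named Il36a, Il36b and Il36g, encode agonists of a separate receptor, Il1rl2, and Il1f5, now named Il36rn, encodes the antagonist of that receptor. These genes are best known from skin, where differentiating keratinocytes express many of them.

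Of the 13 probes, 4 span more genomic bases than their own 60, as mapped in the scanner files on build mm9, and so were placed across a splice junction and read spliced RNA. They are shown because they carry the values of Il1f6 and Il18 and the second reading of Il1a and Il1rn. The second Il1f9 probe, at chr2:24044170-24044229 on the plus strand, is shown with them because it was the Il1f9 probe that passed after 4 weeks in the scanner fit. The sequences are those of the scanner files, 5′ to 3′.
Il1f6, chr2:24072192-24079960, plus strand: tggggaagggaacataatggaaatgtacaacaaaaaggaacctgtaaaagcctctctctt
Il18, chr9:50387470-50389598, plus strand: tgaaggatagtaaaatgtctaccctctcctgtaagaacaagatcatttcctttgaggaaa
Il1a, chr2:129128725-129130459, minus strand: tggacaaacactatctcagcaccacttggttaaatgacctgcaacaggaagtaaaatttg
Il1rn, chr2:24203035-24204055, plus strand: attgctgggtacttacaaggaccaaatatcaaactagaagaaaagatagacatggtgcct
Il1f9, second probe: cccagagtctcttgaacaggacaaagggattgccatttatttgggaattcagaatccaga

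Of the 9 genes, 7 lie on chromosome 2. On mm9 the probes of Il1f8, Il1f9, Il1f6, Il1f5 and Il1rn follow each other from chr2:24015639-24015698 (Il1f8) to chr2:24206125-24206184 (Il1rn) on the plus strand. Il1a and Il1b lie further along on the minus strand, with probes at chr2:129125994-129126053 and chr2:129190347-129190406. The Il33 probe lies at chr19:30034990-30035049.

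The 250 bases before the annotated start were read from RefSeq (GRCm38.p6) for 8 of the 9 genes, in 12 windows because some genes have several starts. The element TGANTCA, which AP-1 factors bind, was searched on both strands and was present in 3 of the 12 windows, against 6.75% of 32851 windows of the same length over all genes. The NF-kB element, GGGA and CC with any 4 bases between them, searched on both strands, was present in 2 of the 12 windows, against 17.6% of all windows. The element TATAAA, searched on both strands, was present in 5 of the 12 windows, against 12.4%, and overlapped neither of the other elements. The windows with the AP-1 element are printed below with its letters in capitals, together with that of Il1f9, the member with the largest fall from controls at 40 weeks in the unscaled deposited ratios, which held none of the 3 elements. A match describes these letters and does not show that a factor binds there.
Il1f8, chr2:24152922-24153171, plus strand: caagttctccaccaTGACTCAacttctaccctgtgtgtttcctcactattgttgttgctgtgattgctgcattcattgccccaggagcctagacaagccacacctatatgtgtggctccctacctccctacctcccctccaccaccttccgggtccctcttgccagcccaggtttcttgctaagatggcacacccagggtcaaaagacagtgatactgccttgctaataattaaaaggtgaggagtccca
Il1rn, chr2:24336610-24336859, plus strand: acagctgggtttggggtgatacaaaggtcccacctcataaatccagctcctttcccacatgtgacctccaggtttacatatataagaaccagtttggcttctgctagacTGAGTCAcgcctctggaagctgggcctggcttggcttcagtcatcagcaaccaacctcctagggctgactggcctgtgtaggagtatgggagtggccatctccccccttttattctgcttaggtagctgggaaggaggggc
Il1a, chr2:129309973-129310222, minus strand: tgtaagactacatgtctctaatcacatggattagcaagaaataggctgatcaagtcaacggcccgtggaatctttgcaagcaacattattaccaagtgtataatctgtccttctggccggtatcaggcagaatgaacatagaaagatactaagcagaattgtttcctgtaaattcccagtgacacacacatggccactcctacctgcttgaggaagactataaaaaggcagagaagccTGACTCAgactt
Il1f9, chr2:24186226-24186475, plus strand: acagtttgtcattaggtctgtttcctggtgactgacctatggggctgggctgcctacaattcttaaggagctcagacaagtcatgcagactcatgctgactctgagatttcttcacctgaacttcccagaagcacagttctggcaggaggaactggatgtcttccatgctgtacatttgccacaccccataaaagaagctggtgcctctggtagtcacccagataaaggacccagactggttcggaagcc
In Il1a the element lies 12 to 6 bases before the start, in Il1rn 141 to 135 bases and in Il1f8 236 to 230 bases.

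Several facts of the arrays bear on all members. Scanner files with both channels were used for the 8 arrays of the 4-week and control groups, while the 40-week arrays were read from the deposited table of log2 ratios alone. All 4 arrays of the 4-week group were on one slide and scan and all 4 controls on another, so slide and group cannot be told apart. Median Cy5 signal above local background was 42.4 to 112 scanner units on the 4-week arrays and 112.3 to 151.1 on the control arrays. Squamous epithelium was present on all arrays by its markers, and the median deposited ratio of 10 markers of suprabasal squamous epithelium was 2.96 to 3.45 on the 40-week arrays, 4.45 to 5.36 on the 4-week arrays and 6.17 to 6.81 on the control arrays. RNA of other organs was found on 3 arrays: 4-week replicate 2 and control replicate 4 had summed Cy5 signals of 1700400 and 1473100 over 8 glandular stomach markers, and control replicate 3 had 2046700 over 9 pancreas markers. Replicates 3 and 4 of the 40-week group stood apart in sex-linked genes: the Y-linked gene Eif2s3y had deposited ratios of -5.67 and -6.28 there and of 2.61 to 3.17 on the other 10 arrays. Every probe of Xist, a gene expressed in females, read 0.11 to 1.96 there and -10.06 to -0.82 on the other 10. By these genes those 2 arrays read as female tissue, and the other 10, all controls among them, as male. The 40-week group thus mixed the sexes, and its replicates 3 and 4 came from other animals than replicates 1 and 2. In whole tissue, fewer cells of a type and less RNA per cell cannot be told apart. The spread of the deposited ratios over all probes was also narrower on the 40-week arrays (SD 1.02 to 1.08) than on the 4-week and control arrays (1.48 to 1.73), and 40-week changes of the members are given with and without scaling of all arrays to 1 spread.

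**Figure D1:**
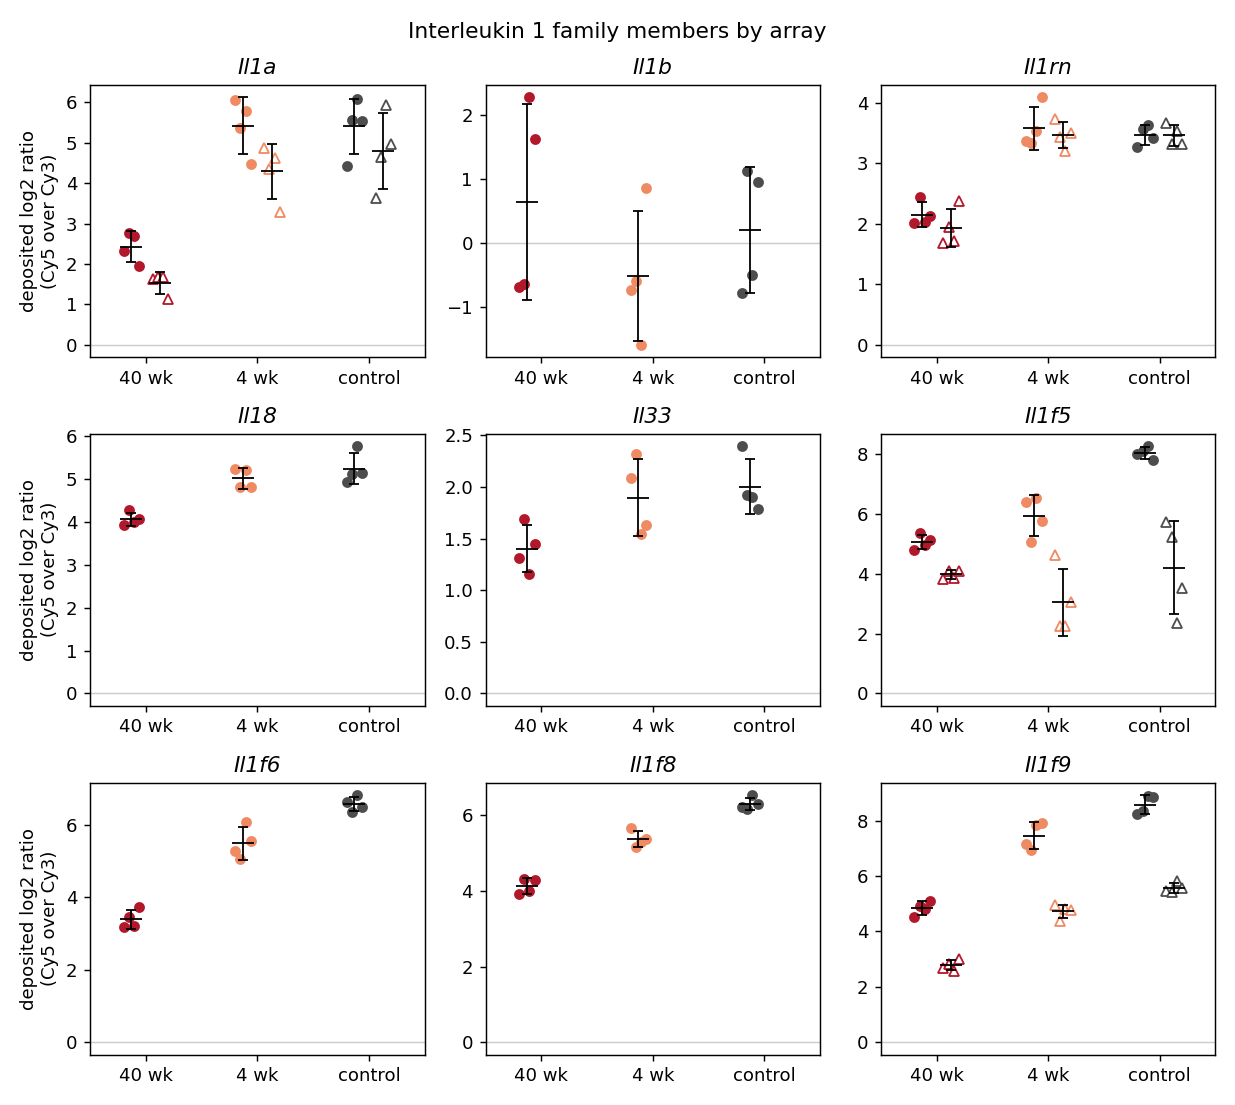
Deposited log2 ratio of forestomach (Cy5) to reference (Cy3) RNA for each member on each array, with 40-week, 4-week and control arrays from left to right. Filled circles are the probe used for the gene, open triangles a second probe where there is one, and bars the mean and SD of 4 arrays. The 40-week values of Il1a, Il1rn, Il18, Il1f6, Il1f8 and Il1f9 all lie below those of the other groups, while Il1b spreads widely in each group.

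The 3 agonists of the receptor Il1rl2 were lower in both alcohol groups in the ratio to the reference. Il1f6 had deposited log2 ratios of 3.17, 3.46, 3.20 and 3.72 after 40 weeks, 5.26, 5.05, 6.08 and 5.55 after 4 weeks, and 6.62, 6.35, 6.82 and 6.49 in controls. The 3 groups did not overlap. Il1f8 had 3.92, 4.31, 4.00 and 4.30 after 40 weeks, 5.66, 5.16, 5.30 and 5.37 after 4 weeks, and 6.24, 6.16, 6.54 and 6.30 in controls, again without overlap. The brighter Il1f9 probe had 4.51, 4.92, 4.81 and 5.11 after 40 weeks, 7.15, 6.93, 7.85 and 7.93 after 4 weeks, and 8.22, 8.33, 8.89 and 8.86 in controls. Its second probe, printed above, gave the same order of groups, with 2.59 to 3.02 after 40 weeks, 4.37 to 4.95 after 4 weeks and 5.41 to 5.83 in controls.

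Il1f5, the antagonist of the same receptor, also stood lower in both alcohol groups. Its brighter probe had deposited log2 ratios of 4.79, 5.37, 4.98 and 5.12 after 40 weeks, 6.42, 5.06, 6.53 and 5.77 after 4 weeks, and 8.01, 8.11, 8.27 and 7.79 in controls. Both alcohol groups lay below every control, and overlapped each other through 4-week replicate 2. The second Il1f5 probe did not give this pattern: it ranged from 3.84 to 4.10 after 40 weeks, from 2.25 to 4.64 after 4 weeks and from 2.34 to 5.73 in controls. For the second probe Cy3 was well above background on 0 of the 8 scanned arrays, so its ratio has no measured denominator. Its Cy5 signal above background was 135.8, 29.1, 23.5 and 22.9 scanner units after 4 weeks and 409.2, 257.9, 31.1 and 71.5 in controls, so the groups overlapped. In the fit of the deposited ratios over 12 samples, Il1f5, Il1f8, Il1f6 and Il1f9 were called lower after 4 weeks, by 2.10 ± 0.28, 0.93 ± 0.15, 1.09 ± 0.21 and 1.11 ± 0.25 (limma adjusted p = 0.0037, 0.00578, 0.0140 and 0.0247). These are 4 of the 9 members, where 3.65% of all genes were called lower and 6.48% had groups that did not overlap in this direction. Without the 3 arrays with RNA of other organs, Il1f6 and Il1f9 were not called (-0.86 and -0.64, limma adjusted p = 0.0570 and 0.124).

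In the scanner data of the 8 arrays, 2 of the 9 members fell after 4 weeks and none rose, where 0.806% of all 20719 genes were called lower and 0.265% higher (limma, Benjamini-Hochberg adjusted p under 0.05). The brighter Il1f5 probe had scanner ratios of 6.37, 5.04, 6.48 and 5.73 after 4 weeks against 7.83, 7.98, 8.17 and 7.66 in controls. Every 4-week array lay below every control, and the ratio fell by 2.00 ± 0.30 on the log2 scale (± SE; 4 arrays in each group, limma adjusted p = 0.0349). Il1f8 had 5.55, 5.08, 5.23 and 5.19 after 4 weeks against 6.03, 6.06, 6.45 and 6.18 in controls, again without overlap, and fell by 0.92 ± 0.14 (limma adjusted p = 0.0349). Il1f6 differed by -1.03 ± 0.20 without passing (limma adjusted p = 0.0516), although its groups did not overlap, as held in this direction for 6.29% of all genes. The 2 Il1f9 probes gave -0.92 ± 0.25 (limma adjusted p = 0.116) and -0.91 ± 0.16, and the second passed when every kept probe was tested by itself (limma adjusted p = 0.0493), where 0.575% of 30450 probes were called lower. The call for Il1f8 was lost whichever 1 of the 8 arrays was left out (-1.01 to -0.83, limma adjusted p = 0.0614 to 0.105). That for Il1f5 was kept without 4-week replicate 2 or 3 (-1.72 and -2.20, limma adjusted p = 0.0491 and 0.0463) and lost without any other array, while the change stayed between -2.16 and -1.92. With the 3 arrays that carried RNA of other organs left out, no gene was called by limma (4563 genes at an unadjusted p under 0.05), and the changes were -1.71 for Il1f5 and -0.73 for Il1f8 (limma adjusted p = 0.0549 and 0.0792).

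Of the 9 members, 7 had a mean control ratio over 3, a level chosen after the values were seen. Il1b and Il33 did not. The same control arrays set this class and enter the change, so selection alone favours a fall, and by how much was not tested. Of 1055 genes with a control log2 ratio over 3, 109 (10.3%) were called lower and none higher, and their median change was -0.57, against a median of -0.02 over all genes. Of the 7 members in this class 2 were called lower, with a median change of -0.92. Ratios of 5 suprabasal epithelial genes, Krt4, Krt1, Krt10, Sprr3 and Crct1, fell as well, among them that of Krt10, a keratin of differentiating epidermis, by 1.79 ± 0.26 (limma adjusted p = 0.0349).

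Read channel by channel, the 4-week change of the brighter Il1f5 probe lay in the reference channel once signals were normalised over arrays. For Il1f5 the Cy5 signal, normalised over arrays, was 16.74, 16.20, 16.84 and 16.39 on the log2 scale after 4 weeks and 16.74, 16.58, 16.91 and 16.21 in controls, and the groups overlapped. Its change in Cy5 was -0.06 ± 0.20 (limma adjusted p = 0.902). In Cy3, the channel of the common reference RNA, the same probe had 11.17, 12.02, 11.22 and 11.71 on the 4-week arrays and 9.97, 9.56, 9.91 and 9.69 on the control arrays. That is a rise of 1.75 ± 0.19 (limma adjusted p = 0.00139) in a channel that held no forestomach RNA by its label, on the slide that held all 4-week arrays. The lower ratio of Il1f5 after 4 weeks thus came without a called change in the normalised forestomach channel. Before that normalisation, its Cy5 signal above local background was lower on every 4-week array than on every control array. The median Cy5 signal over all probes was lower on the 4-week arrays too. How much of the lower unnormalised signal belonged to Il1f5 itself was not tested. In the normalised channels 9 of 10 suprabasal markers rose in Cy3, where 6.04% of all genes were called higher, and 0 were called in Cy5. The same held for other tissues. All 6 smooth muscle markers and 4 of 10 macrophage and dendritic cell markers were called higher in Cy3, and 0 of either list in Cy5. No fibroblast, pancreas or adipocyte marker was called in either channel.

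**Figure D2:**
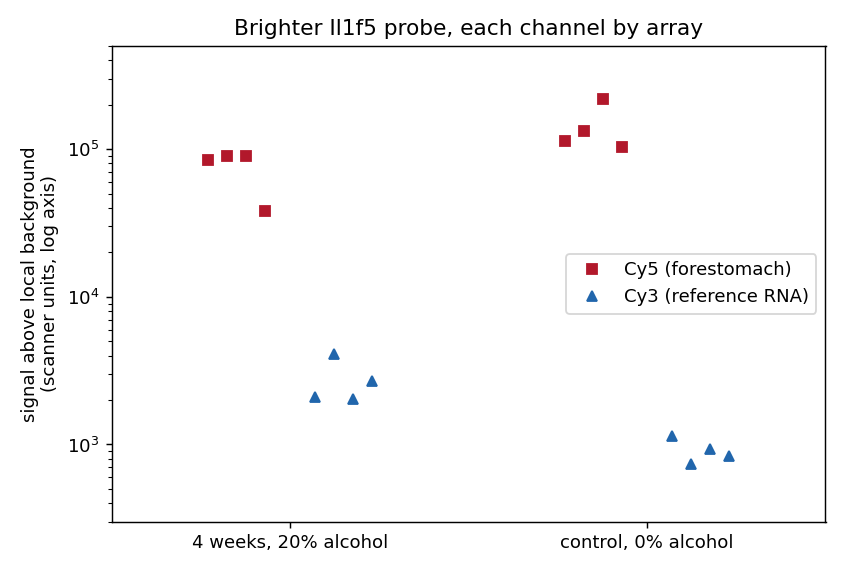
Signal above local background of the brighter Il1f5 probe on each of the 8 scanned arrays, in scanner units on a log axis, with 4-week arrays left of control arrays. The reference channel (Cy3) reads 2043 to 4072 on the 4-week arrays and 741 to 1145 on the control arrays. Without normalisation, the forestomach signal (Cy5) was lower on every 4-week array than on every control array.

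The agonists were split between the channels. Il1f6 differed by -0.28 ± 0.18 in Cy5 and 0.62 ± 0.20 in Cy3, and Il1f8 by -0.33 ± 0.25 in Cy5 and 0.48 ± 0.20 in Cy3, with limma adjusted p values of 0.462, 0.0909, 0.542 and 0.163 in that order. For the brighter Il1f9 probe the change was -0.47 ± 0.23 in Cy5 and 0.34 ± 0.14 in Cy3. In the second Il1f9 probe most of the difference lay in the forestomach channel. Its Cy5 signal above local background was 1771, 2144, 2187 and 821 scanner units after 4 weeks and 2952, 5725, 4649 and 6170 in controls. Normalised over arrays, the log2 signal was 10.84 to 11.41 after 4 weeks and 11.60 to 12.25 in controls, without overlap, as held for 4.8% of all genes in this direction. Its change in Cy5 was -0.81 ± 0.18 (limma adjusted p = 0.0937), and in Cy3 0.02 ± 0.14 (limma adjusted p = 0.933). The second Il1f5 probe differed by -0.56 ± 0.52 in Cy5 (limma adjusted p = 0.625) and by 0.03 ± 0.05 in Cy3, which was not well above background. No member was called in Cy5, where 67 of 20719 genes (0.323%) were called in either direction. Besides Il1f5, Il18 was called higher in Cy3, by 0.36 ± 0.06 (limma adjusted p = 0.00767).

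**Figure D3:**
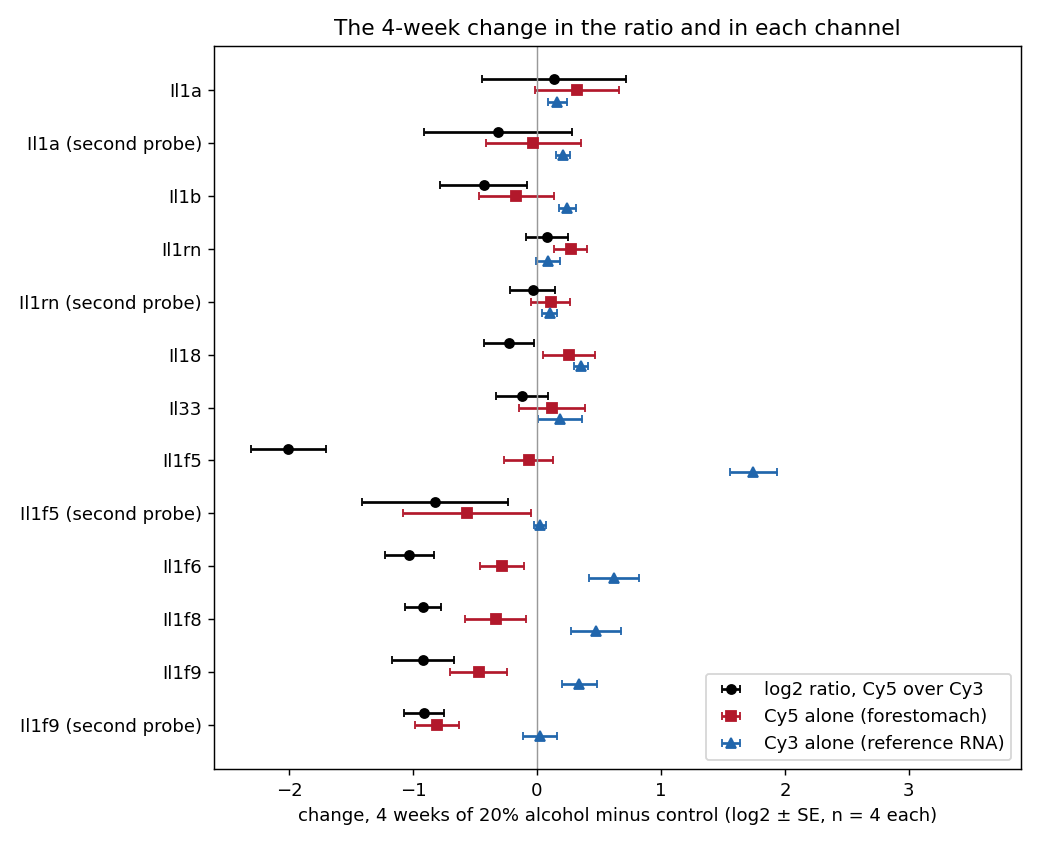
Difference of 4 weeks of 20% alcohol minus control for each of the 13 probes, on the log2 scale with SE (n = 4 each), for the ratio, for Cy5 alone and for Cy3 alone. For Il1f5 the ratio is lower by 2.00, and Cy5 stands at -0.06 and Cy3 at 1.75, while for the second Il1f9 probe the ratio stands at -0.91, Cy5 at -0.81 and Cy3 at 0.02.

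The other 5 members did not pass the test after 4 weeks. Il1rn, the antagonist of Il1r1, differed by 0.08 ± 0.17 in the scanner ratio, with 3.22, 3.23, 3.37 and 3.84 after 4 weeks against 3.08, 3.45, 3.52 and 3.27 in controls. Il33 differed by -0.12 ± 0.21 and Il18 by -0.22 ± 0.20, with 4.72 to 5.13 after 4 weeks against 4.82 to 5.70 in controls for Il18. Limma adjusted p values of these 3 genes were 0.842, 0.809 and 0.611. In Cy5 the change was 0.27 ± 0.13 for Il1rn, 0.12 ± 0.26 for Il33 and 0.26 ± 0.21 for Il18, so that the sign for Il18 and Il33 depended on whether the ratio or the forestomach channel was read.

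Il1a varied more from array to array than between the 4-week and control groups. Its scanner ratio was 4.37, 4.01, 3.58 and 1.95 after 4 weeks and 2.14, 3.57, 4.27 and 3.38 in controls, a difference of 0.14 ± 0.58 (limma adjusted p = 0.928). The second probe, across a splice junction, was low on the same arrays, with 1.32 in 4-week replicate 4 and 1.47 in control replicate 1. After the group means were subtracted, the deposited ratios of both Il1a probes had a Pearson r of 0.946 over 12 samples, which share array and labelling. The other pairs of probes gave 0.607 for Il1f9, 0.198 for Il1f5 and -0.003 for Il1rn. For Il1a the reference channel was well above background on all 4 of the 4-week arrays, but on 1 of 4 control arrays for the first probe and on 2 of 4 for the second, so most control ratios of Il1a lack a measured denominator. 4-week replicate 4 was also the dimmest array of all, with the median Cy5 signal of 42.4.

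Il1b, the form made by myeloid cells more than by epithelium, had ratios of both signs in every group. It was printed in 10 spots, whose log2 ratios on 1 scanned array had an SD of 0.05 to 0.18, while the SD between arrays was 0.51 after 4 weeks and 0.64 in controls. The spots share labelling and hybridisation, so their SD leaves out those errors. Its scanner ratio was -0.39, -0.32, -0.64 and 0.53 after 4 weeks and -0.40, 0.87, -0.26 and 0.68 in controls, a difference of -0.43 ± 0.35 (limma adjusted p = 0.561). The deposited ratio was -0.68, -0.63, 2.27 and 1.62 after 40 weeks, -0.73, -0.59, -1.58 and 0.86 after 4 weeks and -0.78, 1.13, -0.49 and 0.95 in controls. Replicates 3 and 4 of the 40-week group, the arrays that stand apart in sex-linked genes, were the 2 highest of all 12. The 40-week group differed from controls by 0.44 ± 0.74 (limma adjusted p = 0.659), and by -0.86 ± 0.69 without those 2 arrays (limma adjusted p = 0.389).

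Some markers of neutrophils, cells that express Il1b, differed between the same 40-week arrays. Of the 9 listed markers 4 were measured, and all 4 were called lower after 40 weeks than in controls, as were 23.9% of all genes. Their changes on arrays scaled to 1 spread are not given. Their median deposited ratio was 0.20, 0.30, 2.58 and 2.03 on the 40-week arrays, 2.12 to 2.61 on the 4-week arrays and 2.42 to 3.51 on the controls. Retnlg, a secreted product of neutrophils, had -0.04, 0.01, 3.17 and 2.51 on the 40-week arrays, and 2.67 to 5.04 on the other 8. Csf3r, the receptor of the neutrophil growth factor, had 0.43, 0.59, 2.17 and 1.55 on the 40-week arrays. Mpo, myeloperoxidase, ran from -0.74 to -0.11 and Cxcr2, a chemokine receptor, from 2.75 to 2.99, so these did not separate the arrays in the same way. S100a8, a calcium-binding protein of neutrophils and stressed epithelium, is not among the 9 listed markers. It had -2.57, -2.30, 1.47 and 1.02 on the 40-week arrays. On the other 8 it ran from -2.63 to 3.35, with control replicate 4 the highest. S100a9 had 4.47, 4.88, 4.51 and 4.88 on the 40-week arrays and did not separate them in this way. The part of neutrophils in the Il1b values was not tested.

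**Figure D4:**
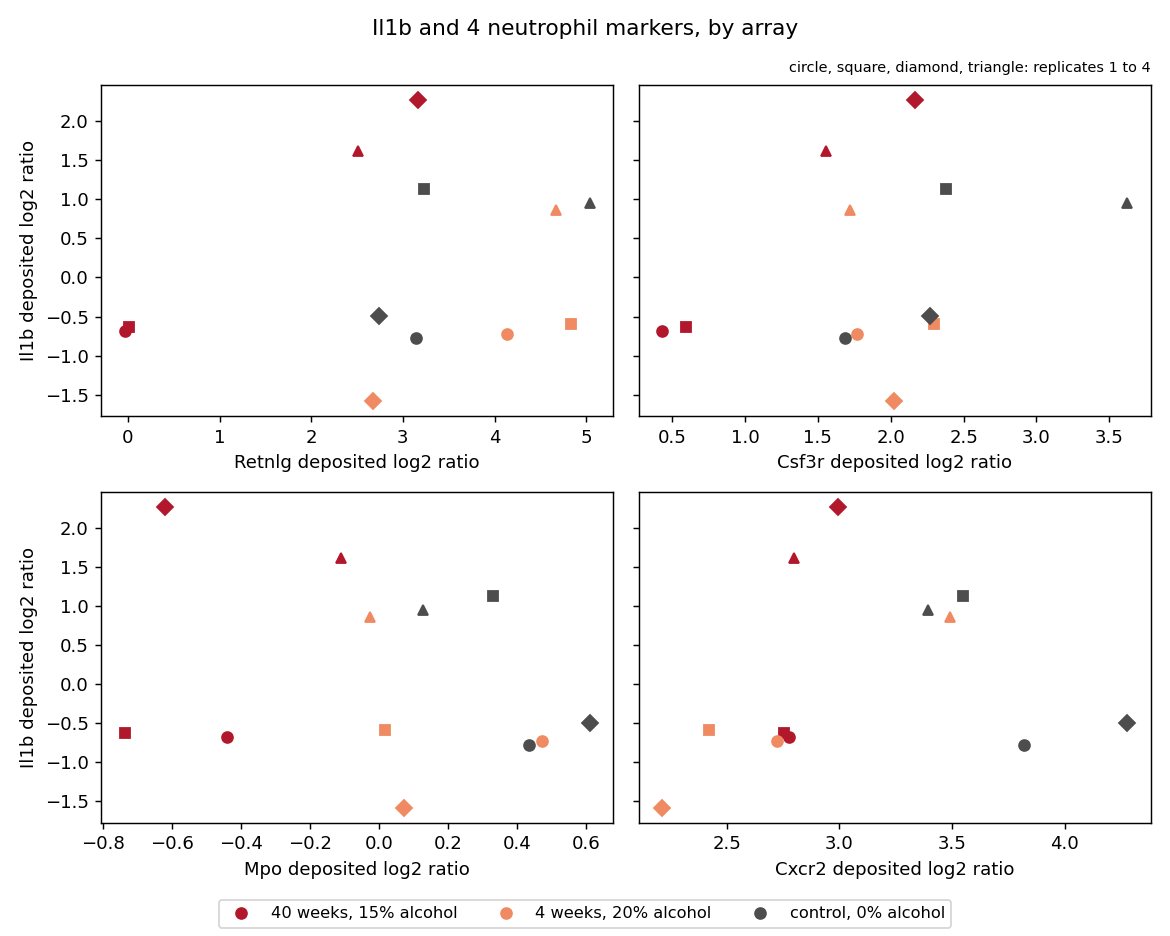
Deposited log2 ratio of Il1b against that of 4 neutrophil markers on the 12 arrays, coloured by group (40 weeks, 4 weeks, control) with a marker shape per replicate. The 40-week replicates 3 and 4 lie at 2.27 and 1.62 for Il1b, and at 3.17 and 2.51 for Retnlg, where replicates 1 and 2 lie near 0.

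After 40 weeks of 15% alcohol, 8 of the 9 members were lower than in controls in the deposited ratio, and Il1b was the exception. Over all genes 23.9% were called lower and 18.6% higher, so that change was common on these arrays. The agonist genes fell by 3.74 ± 0.25 for Il1f9, 3.18 ± 0.21 for Il1f6 and 2.17 ± 0.15 for Il1f8 (limma adjusted p = 1.447e-06 each). Il1f5 fell by 2.98 ± 0.28 (limma adjusted p = 9.2e-06), but its second probe differed by -0.23 ± 0.69 (limma adjusted p = 0.810).

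Il1a had deposited ratios of 2.32, 2.77, 2.68 and 1.94 after 40 weeks, 6.07, 5.38, 5.79 and 4.46 after 4 weeks, and 4.44, 5.56, 6.08 and 5.55 in controls. Every 40-week array lay below every other array, as held against the controls for 23.9% of all genes. Il1a fell by 2.98 ± 0.39 against controls (limma adjusted p = 0.000106) and by 3.27 ± 0.44 on its second probe. The sizes of these falls are uncertain, because Cy3 was not well above background on 3 of 4 control arrays for the first probe and on 2 of 4 for the second, and the Cy3 signals of the 40-week arrays were not used here.

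Il1rn, the antagonist for the receptor of Il1a, had 2.01, 2.45, 2.03 and 2.13 after 40 weeks, 3.37, 3.33, 3.53 and 4.09 after 4 weeks and 3.26, 3.57, 3.64 and 3.42 in controls. The 40-week arrays lay below all others, and the change was -1.32 ± 0.18 on one probe and -1.54 ± 0.18 on the other (limma adjusted p = 0.000145 and 4.19e-05). Il18 had 3.92, 4.27, 4.00 and 4.08 after 40 weeks, 5.24, 4.81, 5.21 and 4.81 after 4 weeks and 4.94, 5.11, 5.77 and 5.14 in controls. Its 40-week arrays were again the lowest, and it fell by 1.17 ± 0.19 against controls (limma adjusted p = 0.000443).

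Il33 had 1.31, 1.69, 1.16 and 1.44 after 40 weeks, 2.09, 2.32, 1.54 and 1.63 after 4 weeks and 2.40, 1.93, 1.90 and 1.79 in controls. The 40-week arrays lay below the controls and overlapped the 4-week arrays, and the fall of 0.60 ± 0.20 was the smallest that was called among the members (limma adjusted p = 0.0307). The call was lost without control replicate 1 or without 40-week replicate 1, 3 or 4 (-0.62 to -0.47, limma adjusted p = 0.0555 to 0.0883). Of 15 alternative settings in all, 5 lost the call and 1 reversed the sign.

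Most genes that stood high over the reference in controls fell in the same comparison. Of 1496 genes with a control ratio over 3, 1290 (86.2%) were called lower and none higher, with a median change of -1.71. All 7 members of this class were lower, with a median of -2.98, and all 10 suprabasal markers were lower too, with a median of -3.18 and, for Krt1, a change of -4.41 ± 0.28. The members' count was thus close to that of other genes as high over the reference.

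When every array was scaled to 1 spread, 3 members remained lower than in controls, where 18.7% of all genes were called lower. Il1a differed by -1.60 ± 0.36, Il1f6 by -1.42 ± 0.20 and Il1f9 by -1.32 ± 0.27 (limma adjusted p = 0.00491, 0.000388 and 0.00269). Il1f5 (-0.56 ± 0.32), Il1rn (-0.28 ± 0.19), Il1f8 (-0.23 ± 0.19) and Il33 (0.03 ± 0.20) were no longer called. Il18 turned to a rise of 0.64 ± 0.16 (limma adjusted p = 0.00951), where 18.6% of all genes were called higher. The direction for Il18 and the calls for Il1f5, Il1rn, Il1f8 and Il33 thus depended on the scale of the 40-week columns, while the falls of Il1f6 and Il1f9 were called on both scales, as was that of Il1a, with mostly unmeasured control denominators.

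**Figure D5:**
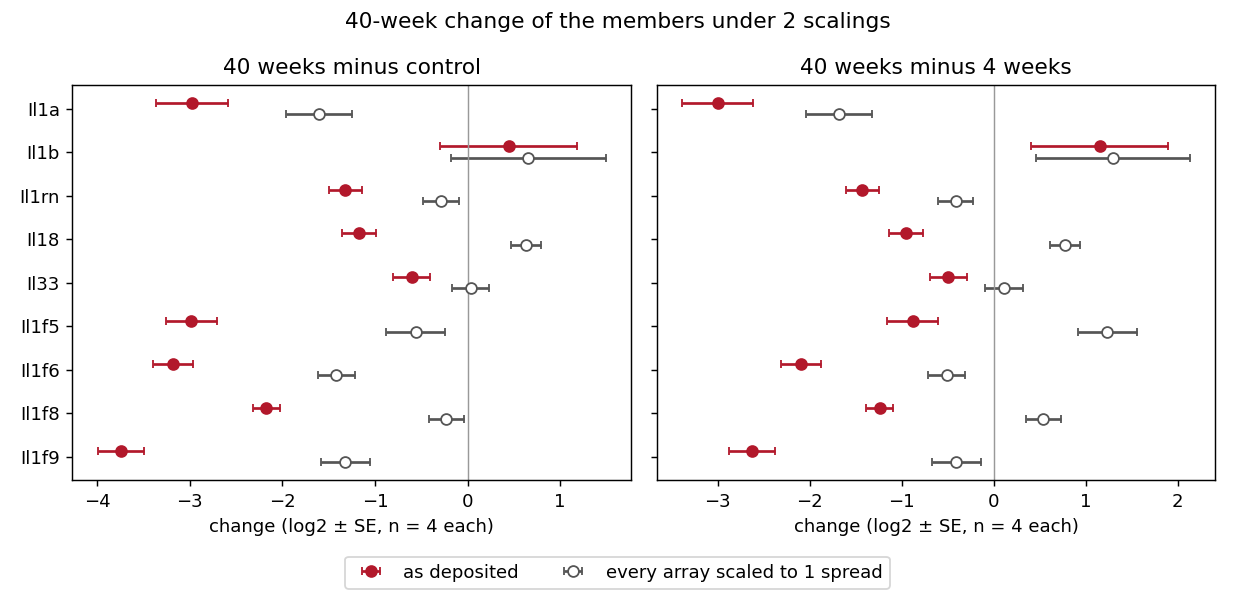
Change of each member at 40 weeks against controls (left) and against 4 weeks (right), in log2 units with SE (n = 4 each), for deposited ratios and after every array was scaled to 1 spread. Against controls, Il1a, Il1f6 and Il1f9 stay below -1 on both scales and Il18 changes sign.

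Between the alcohol groups, 7 of the 9 members were lower after 40 weeks of 15% alcohol than after 4 weeks of 20% alcohol, where 23.2% of all genes were called lower. Of 1496 genes with a control ratio over 3, 1161 (77.6%) were called lower, with a median change of -1.25. All 7 members of this class were called lower, with a median of -1.43, so their count was close to that of other such genes. The comparison shares its 40-week samples with the preceding one. Il1a fell by 3.00 ± 0.39, Il1f9 by 2.63 ± 0.25 and Il1f6 by 2.09 ± 0.21 (limma adjusted p = 0.000163, 3.04e-05 and 4.54e-05). Il1rn fell by 1.43 ± 0.18, Il1f8 by 1.24 ± 0.15, Il18 by 0.95 ± 0.19 and Il1f5 by 0.88 ± 0.28, the last with groups that overlapped (limma adjusted p = 0.0250). The Il1f5 call was lost without replicate 1 or 3 of either group (limma adjusted p = 0.0587 to 0.0744). Of 15 alternative settings for Il1f5, 5 lost the call, with limma adjusted p up to 0.127, and 1 reversed the sign. Il33 differed by -0.50 ± 0.20 (limma adjusted p = 0.0669; -0.61 and 0.0400 without 4-week replicate 3) and Il1b by 1.16 ± 0.74 (limma adjusted p = 0.234). With every array scaled to 1 spread, Il1a was the one member called lower, at -1.68 ± 0.36 (limma adjusted p = 0.00362), where 18.4% of all genes were. On that scale Il1f5, Il1f8 and Il18 were called higher, by 1.23 ± 0.32, 0.54 ± 0.19 and 0.78 ± 0.16, where 19.7% of all genes were.

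Of 9 receptors and binding proteins of the family, all measured, none was called in the 4-week scanner ratio, where Il18r1, the receptor of Il18, had the largest difference (-0.62 ± 0.24) and Il1r2 the next (-0.51 ± 0.31). In the deposited fit Il1r2 was called lower after 4 weeks, as were 3.65% of all genes (-0.86 ± 0.23, limma adjusted p = 0.0480, with a Cy5 difference of 0.50 ± 0.28). Il18r1 differed by -1.44 ± 0.57 there (limma adjusted p = 0.151). After 40 weeks 2 of 9 rose and 1 fell, where 18.6% of all genes rose and 23.9% fell, with a median over the list of 0.24, against -0.09 over all genes. Il1rl1, the receptor of Il33, rose by 2.02 ± 0.21 (limma adjusted p = 1.7e-05), with deposited ratios of -2.90 to -2.62 after 40 weeks against -5.12 to -4.30 in controls. Il18rap, the accessory chain of the Il18 receptor, rose by 0.99 ± 0.25, a call lost without 40-week replicates 3 and 4 (0.90 ± 0.33, limma adjusted p = 0.0779). Il1r2, a decoy receptor that binds Il1a and Il1b without signalling, fell by 2.78 ± 0.23 (limma adjusted p = 3.7e-06), with 3.71 to 4.21 after 40 weeks against 6.29 to 7.13 in controls. With every array scaled to 1 spread, Il1r2 remained lower (-0.86 ± 0.21, limma adjusted p = 0.00740), Il1rl1 was no longer called (0.69 ± 0.27, limma adjusted p = 0.0626) and Il18rap changed sign (-0.15 ± 0.25). Il1rl2, the receptor of Il1f6, Il1f8 and Il1f9, was called higher on that scale alone, by 1.00 ± 0.24 (limma adjusted p = 0.00783).

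Of 15 genes that process or release the cytokines, 13 were measured and none was called after 4 weeks in the scanner ratio. The largest differences were those of Casp4, an inflammatory caspase (-1.16 ± 0.42), and the mast cell protease Mcpt4 (-0.89 ± 0.24). In the deposited fit Gsdma and Mcpt4 were called lower after 4 weeks (-0.81 ± 0.15 and -1.03 ± 0.21, limma adjusted p = 0.00996 and 0.0164), with Cy5 differences of 0.50 ± 0.21 and 0.55 ± 0.30. These are 2 of 13, where 3.65% of all genes were called lower. After 40 weeks 7 of 13 fell and 1 rose, where 23.9% and 18.6% of all genes did. Nlrp3, a sensor of the inflammasome, rose by 0.68 ± 0.11 (limma adjusted p = 0.000550), with ratios of 0.38 to 0.46 after 40 weeks against -0.48 to -0.17 in controls, and by 0.76 ± 0.11 when arrays were scaled. Casp1, the protease that cuts Il1b and Il18, ran from 0.81 to 0.86 after 40 weeks and from 0.65 to 1.63 in controls. Pycard, the adaptor between them, fell by 1.21 ± 0.18, and Gsdma, a pore-forming gasdermin of epithelium, by 1.19 ± 0.15, but scaled values were 0.15 ± 0.17 and -0.25 ± 0.17, with the sign of Pycard turned and neither called. Capn1, a calpain, fell by 0.75 ± 0.21 (not called when scaled, -0.44 ± 0.20, or without 40-week replicates 3 and 4, -0.67 ± 0.28) and Ctss, a cathepsin of antigen-presenting cells, by 0.92 ± 0.32 (scaled -1.36 ± 0.33, called). The other 3 that fell were the mast cell or granulocyte proteases Mcpt4, Cma1 and Ctsg, by 2.59 ± 0.21, 2.22 ± 0.22 and 1.12 ± 0.22, of which Mcpt4 and Ctsg were still called on scaled arrays (-1.39 ± 0.17 and -0.85 ± 0.23) and Cma1 was not (-0.70 ± 0.26). Capn2, another calpain gene, was called lower on scaled arrays alone (-0.78 ± 0.16). Mast cell markers moved with them: 5 of 7 fell, with a median ratio of 1.83 to 2.21 on 40-week arrays against 4.30 to 5.23 on control arrays, and that list includes Mcpt4 and Cma1. Other tissues fell in the same unscaled ratios, with 5 of 6 endothelial and 6 of 6 smooth muscle markers called lower, against 1 of 7 fibroblast markers. Scaled values of these markers as lists are not given. The part of mast cells in the protease values was not tested.

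All 15 signalling genes were measured. None was called after 4 weeks in the scanner ratio, where Irak3 (0.56 ± 0.21), an inhibitor of the receptor kinases, and Traf6 (0.46 ± 0.14), a ubiquitin ligase, differed most. In the deposited fit Traf6 was called higher after 4 weeks (0.53 ± 0.14, limma adjusted p = 0.0456). After 40 weeks 3 of 15 rose and 3 fell, near the shares of 18.6% and 23.9% over all genes. Nfkbiz, a nuclear cofactor of NF-kB that the family induces, rose by 1.74 ± 0.40 (limma adjusted p = 0.00484), with deposited ratios of -0.204, -0.401, -0.003 and -0.678 after 40 weeks against -2.826, -0.956, -2.969 and -1.511 in controls, without overlap. Tnfaip3, which ends NF-kB signalling, rose by 1.21 ± 0.35 and the kinase gene Irak1 by 0.40 ± 0.13. Tnfaip3 had -1.69, -1.30, 0.235 and -0.86 after 40 weeks against -2.24 to -2.02 in controls, and without 40-week replicates 3 and 4, which stand apart in sex-linked genes, neither was called (0.62 ± 0.26 and 0.35 ± 0.18, limma adjusted p = 0.104 and 0.176). The kinase genes Irak2, Irak4 and Map3k7 fell by 0.76 ± 0.14, 0.80 ± 0.17 and 0.60 ± 0.10. On scaled arrays Nfkbiz, Irak2, Irak4 and Map3k7 were still called in the same direction (1.38 ± 0.34, -0.44 ± 0.13, -0.68 ± 0.16 and -0.40 ± 0.10), while Tnfaip3 (0.72 ± 0.41) and Irak1 (0.25 ± 0.13) were not. Traf6 (0.68 ± 0.13) and Tollip (0.56 ± 0.14), an inhibitor of receptor signalling, were called higher on the scaled arrays alone.

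Of 15 known target genes of the pathway 12 were measured. After 4 weeks S100a9, which encodes a subunit of calprotectin, was called lower in the scanner ratio, by 1.55 ± 0.18 (limma adjusted p = 0.0349). The deposited fit called S100a9 lower too, as it did 3.65% of all genes. In Cy5 it differed by -0.47 ± 0.28 and in Cy3 it rose by 0.91 ± 0.24 (limma adjusted p = 0.445 and 0.0476). After 40 weeks Ccl2, a chemokine for monocytes, rose by 1.94 ± 0.36, the acute phase gene Saa3 by 1.90 ± 0.57 and the epithelial cytokine gene Tslp by 1.09 ± 0.20 (limma adjusted p = 0.00140, 0.0181 and 0.00122), and S100a9 fell by 2.85 ± 0.18 (limma adjusted p = 1.278e-06). These are 3 higher and 1 lower of 12, where 18.6% and 23.9% of all genes were. Saa3 had -2.46, -2.27, -0.54 and -1.08 after 40 weeks against -4.06, -3.81, -4.36 and -1.72 in controls, so the groups overlapped. Without 40-week replicates 3 and 4 its difference was 1.12 ± 0.62 (limma adjusted p = 0.213). Ccl2 had deposited ratios of -1.78 to -0.63 after 40 weeks against -4.0 to -2.79 in controls, without overlap. On scaled arrays Ccl2 (1.19 ± 0.33) and S100a9 (-0.60 ± 0.21) were still called, Saa3 (1.03 ± 0.57) was not, and Tslp changed sign (-0.15 ± 0.19). Ptgs2, the inducible cyclooxygenase, and the chemokine gene Ccl20 were called lower on that scale alone (-1.52 ± 0.23 and -1.51 ± 0.44).

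Against the 4-week group, where 18.3% of all genes were called higher, the 40-week group was called higher for 2 receptors (Il1rl1 and Il18r1), 1 processing gene (Casp4), 3 signalling genes (Irak1, Nfkbiz and Tnfaip3) and 4 targets (Ccl2, Tslp, Icam1 and Saa3). It was called lower, as were 23.2% of all genes, for 1 receptor (Il1r2) and 5 processing genes (Pycard, Capn1, Ctsg, Cma1 and Mcpt4). Lower too were 4 signalling genes (Irak2, Irak3, Irak4 and Map3k7) and 2 targets (Ccl20 and S100a9). Median changes were 0.30, -0.39, 0.04 and 0.86 for receptors, processing, signalling and targets, against -0.08 over all genes. With every array scaled to 1 spread, Pycard and S100a9 were called higher instead (0.67 ± 0.17 and 0.78 ± 0.21, limma adjusted p = 0.00844 and 0.0137). Il1r2, Il1rl1, Casp4, Irak1, Irak2, Irak3, Tnfaip3 and Tslp were no longer called, and Tslp changed sign (-0.08 ± 0.19). On that scale alone, Il1rl2, Nlrp3 and Tollip were called higher, and Casp8, Capn2, Ctss and Ptgs2 lower. Of all genes 19.7% were called higher and 18.4% lower there.

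Among themselves the members varied in different ways from array to array. After subtraction of group means, the deposited ratios of Il1f6 and Il1f9 had a Pearson r of 0.757 over 12 samples, Il1a and Il18 of 0.752, and Il1f8 and Il18 of 0.737, while Il33 and Il1f9 had -0.680. These values are descriptions, since all genes of a sample share its RNA, labelling and array. For the 3 members with the highest mean Cy5 signal, the named genes with the most similar pattern were Krt23, S100a14 and Lce3c for Il1f5 (r = 0.980, 0.973 and 0.973), Olfr345, Stx19 and 1700019N19Rik for Il1f8 (0.925, 0.913 and 0.894) and Cd4, Trim27 and Shc4 for Il18 (0.986, 0.967 and 0.949), over the same 12 samples.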

How the data were processed

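Scanner output for 8 arrays gives spot and local background intensity as deposited by the authors; per the file headers it was made with Agilent Feature Extraction 10.7.3.1, whereas the submitters' processing notes name 9.1. The authors' deposited table gives log2 ratios for all 12 arrays. For the 8 scanned arrays it matched the background-subtracted log2 ratio minus a smooth curve over intensity within 0.05 for at least 99.997% of probes with both channels above background, and the sources used here do not say how the 40-week columns were made. Column medians were 0.000 to 0.067.

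Background was corrected with normexp (offset 50) and arrays were normalised by loess in limma 3.58.1 (R 4.3.3), with controls and outlier spots at weight 0. Probes with Cy5 well above background on at least 3 of 4 arrays of either scanned group were kept, and the probe with the highest mean Cy5 stood for a gene. Single channels were quantile-normalised over arrays. The 4-week comparison used 8 scanned arrays, and 40-week comparisons used the deposited table with all 12 arrays and no further normalisation, so both comparisons with controls share the controls. Scaling to 1 spread divided each array by its median absolute deviation and multiplied it by the geometric mean over arrays. Genes were called at a Benjamini-Hochberg adjusted p under 0.05 over all genes. The scripts were tested on simulated data. The 40-week arrays had no part in the filter. Named genes were all member probes, called genes of 4 pathway lists, and otherwise the 2 with the largest 4-week difference in a list. Likeness was the Pearson correlation of deposited ratios after subtraction of group means, with the 3 nearest named genes for the 3 members of highest mean Cy5. Neutrophil genes and S100a8 were named after their values were seen. The members and lists were chosen with earlier results of these data known. Alternatives covered background correction, normalisation, scaling, filters, the replicate block and arrays left out.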

Additional observations from a re-analysis of the deposited data

Results flagged for a closer look

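Of 39 sets of 4 values, 3 groups for each of the 13 probes, 1 held a sample far from the others; about 1 in 20 such sets does by chance. For the second Il1a probe, 40-week replicate 4 had a deposited log2 ratio of 1.132, where replicates 1, 2 and 3 had 1.62, 1.67 and 1.68, and its gap was 0.884 of the group's range. The first Il1a probe was lowest on the same array, at 1.94.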

How the results depend on the processing

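In the 4-week scanner ratio, where 222 genes were called in the fit as reported, 545 were called without background correction, 727 with the scanner's processed signals, 143 with the deposited values of the same 8 arrays, and 0 with median centring in place of loess, with every array scaled to 1 spread, with the replicate block, or without the 3 arrays that carried RNA of other organs. At an unadjusted p under 0.05 limma gave 2827, 3259, 3789 and 4563 genes in the last 4 fits. Leaving out 1 array gave 0 to 52 calls. In the deposited table, 4 weeks against control moved from 1241 calls to 2488 without the 3 arrays. For 40 weeks against control, 8818 calls became 5052 without 40-week replicates 3 and 4, and 7214 to 9252 without 1 array. For 40 against 4 weeks, 8604 calls among 20719 genes became 13092 among 30450 probes when every kept probe was tested, 4673 without 40-week replicates 3 and 4, and 7090 to 8214 without 1 array. In Cy5, 67 calls became 30 with median centring, 0 with the replicate block or without the 3 arrays (3958 and 3829 at an unadjusted p under 0.05), and 0 to 21 without 1 array. In Cy3, 1803 calls became 546 with median centring, 1166 with the replicate block, 306 without the 3 arrays, and 646 to 2312 without 1 array.

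Signs of members turned mostly where the change was near 0. In the 4-week scanner ratio Il1a turned to -0.19 without background correction and to -0.53 with processed signals, Il1rn to -0.075 with median centring, Il18 to 0.21 and Il33 to 0.012 with 1 spread, and Il18 to 0.068 without the 3 arrays (0.062 in the deposited table). Without 1 array, Il1a ran from -0.26 to 0.65, Il1rn from -0.059 to 0.15 and Il33 from -0.26 to 0.013. With 1 spread, Il18 and Il33 turned to 0.64 and 0.03 against control, and Il1f5, Il1f8, Il18 and Il33 to 1.23, 0.54, 0.78 and 0.11 against 4 weeks. Il1b turned to -0.86 against control and to -0.15 against 4 weeks without 40-week replicates 3 and 4, and ran from -0.10 to 0.88 against control without 1 array. In Cy5, Il1f5 and Il33 turned to 0.0021 and -0.092 without the 3 arrays. Without 1 array, the Cy5 change ran from -0.39 to 0.016 for Il1b, from -0.20 to 0.051 for Il1f5 and from -0.037 to 0.39 for Il33. In Cy3, Il1rn turned to -0.0089 without the 3 arrays. The causes were not tested.

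Replicate numbers of the labels did not meet the bar for pairing, a correlation of deviations over 0.1 in every pair: same-numbered arrays gave 0.20, 0.10, 0.06 and 0.20 for 40 weeks and control, 0.32, -0.48, 0.14 and -0.26 for 4 weeks and control, and 0.18, -0.20, -0.19 and -0.01 for 40 and 4 weeks. With the replicate block, Il33 in 40 against 4 weeks was called (-0.50, limma adjusted p = 0.0440), and Il1f5 and Il1f8 lost their 4-week scanner calls (limma adjusted p = 0.0819 and 0.0969). Median centring (limma adjusted p = 0.0520 and 0.0726) and 1 spread (0.204 and 0.491) lost both too, while Il1f6 was called without background correction, with processed signals, with probes well above background on all 8 arrays and without 4-week replicate 3 (limma adjusted p = 0.0325 to 0.0463). Il1f9 was called in the same fit without background correction and with processed signals (-1.21 and -1.38, limma adjusted p = 0.0316 and 0.0261). Of the members' recomputed changes, 558 kept their direction and side of the threshold, 41 lost their call, 10 gained one and 30 reversed. Leaving the 3 arrays out of the deposited-table and single-channel fits, and 40-week replicates 3 and 4 out of the pathway genes' fit, was chosen after seeing the data. Dim Cy3 signals limit Il1a and the second Il1f5 probe.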
